A study of Mus musculus with 28 samples.

Results

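DNA methylation of neural stem cells (NSCs) with and without Smchd1 was mapped by MBD-seq, in which methylated DNA is pulled out for sequencing by beads coated with a part of human MBD2 that binds methyl-CpG. The 6 libraries described here were chosen by their titles from the 28 libraries of the series: 3 were labelled wild type and 3 were labelled Smchd1 null, which stands for homozygous MommeD1/MommeD1, a loss-of-function allele of Smchd1. All came from male NSCs of the cross C57BL/6 x FVB/N, derived from E14.5 embryo brain and grown on laminin with EGF and bFGF. They are therefore cultured progenitors of a fetal brain and not a tissue, and the labels do not say whether the 3 replicates of a genotype came from separate embryos. The labels name 1 whole cell extract per genotype as the control of its 3 libraries. The authors called peaks on the 3 libraries of a genotype together, so each genotype has 1 list of summits (the single highest position of a peak) and no value has replicate error.

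The labels contradict the list names. The null libraries cite the list named WTMBD, called the WT-named list below, and the wild-type libraries cite the list named D1MBD, called the D1-named list, D1 also ending the allele name MommeD1. The labels of the whole cell extracts follow the sample titles, naming the libraries titled wild type under the wild-type extract and those titled null under the null one. Every difference is therefore given between list names, and no genotype direction is drawn: read by list name the D1-named list is the null, and read by the sample labels it is the wild type.

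In mammalian DNA, methyl groups are carried by the cytosine of CpG dinucleotides and are bound by MBD proteins. Most CpGs are methylated, whereas dense groups of CpGs at promoters, called CpG islands, usually are not. Exceptions are the islands of germline genes, of imprinted genes on 1 parental allele and of the inactive X chromosome. Smchd1 is a chromatin protein needed for full methylation of islands on the inactive X, and for silencing of some imprinted genes and clustered protocadherins. Male cells have no inactive X. MBD capture favours fragments with many methylated CpGs, so a summit marks dense methylation and its absence does not show that a region is unmethylated. In a bulk culture, methylation in fewer cells and at fewer CpGs per cell cannot be told apart.

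The WT-named list held 156188 summits on assembled chromosomes and the D1-named list 126631, a ratio of 1.23. The score of a summit is the authors' −log10 significance value (p or q) and serves here only to rank summits within its list. Scores had a median of 20.1 in the WT-named and 18.35 in the D1-named list, with highest values of 119.1 and 108.6. Read numbers were not used here, and the sequencing depth of the lists is unknown. The labelled cell type was checked on H3K4me3, a mark of active promoters, deposited for the same cells: of 13 NSC genes with a known start, 12 had the mark within 1 kb in wild-type cells and 10 in null cells. Among them were Nes, Vim, Fabp7, Olig2, Hes5 and Sox1, but not Sox2 at the start listed. The mark was not limited to NSC genes: in both genotypes it lay at 8 of 14 neuronal, 2 of 8 glial, 2 of 5 endothelial and 1 of 5 mesenchymal genes, and at 0 of 9 blood genes.

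The promoter windows of 8 genes are printed first, because they show the kinds of sequence that did and did not hold a summit. Each runs from 250 bases before the gene start to 50 after it, is written 5′ to 3′ on the strand of the gene, comes from RefSeq on build GRCm38.p6 (the assembly of mm10), and has every CpG in capitals. The genes were chosen after their values were seen. Asz1 (chr6:18109012-18109311, minus strand), Brdt (chr5:107330944-107331243, plus strand), Hormad1 (chr3:95559427-95559726, plus strand) and Tex14 (chr11:87404815-87405114, plus strand) are expressed in germ cells. Mcts2 (chr2:152686898-152687197, plus strand) and Peg12 (chr7:62464461-62464760, minus strand) are imprinted genes. Hes5 (chr4:154960673-154960972, plus strand) is a Notch target of neural progenitors and Gapdh (chr6:125165724-125166023, minus strand) a glycolytic enzyme.
Asz1: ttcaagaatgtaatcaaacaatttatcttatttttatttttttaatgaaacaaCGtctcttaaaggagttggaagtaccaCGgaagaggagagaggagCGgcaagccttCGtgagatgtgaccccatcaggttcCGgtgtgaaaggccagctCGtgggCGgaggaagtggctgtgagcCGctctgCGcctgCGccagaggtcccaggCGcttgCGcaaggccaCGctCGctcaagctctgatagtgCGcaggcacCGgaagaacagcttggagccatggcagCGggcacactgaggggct
Brdt: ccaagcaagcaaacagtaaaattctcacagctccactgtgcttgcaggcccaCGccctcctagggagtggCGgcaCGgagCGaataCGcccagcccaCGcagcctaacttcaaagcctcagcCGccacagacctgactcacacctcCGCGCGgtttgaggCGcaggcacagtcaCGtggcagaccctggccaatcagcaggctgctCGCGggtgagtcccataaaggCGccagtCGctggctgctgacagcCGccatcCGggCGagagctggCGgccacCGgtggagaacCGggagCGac
Hormad1: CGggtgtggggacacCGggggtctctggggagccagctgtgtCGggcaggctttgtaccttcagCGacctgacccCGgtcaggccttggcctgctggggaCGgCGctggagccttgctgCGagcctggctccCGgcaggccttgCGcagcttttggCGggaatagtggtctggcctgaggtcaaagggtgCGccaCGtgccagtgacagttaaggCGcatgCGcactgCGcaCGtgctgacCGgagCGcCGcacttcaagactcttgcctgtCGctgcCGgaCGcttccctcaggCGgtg
Tex14: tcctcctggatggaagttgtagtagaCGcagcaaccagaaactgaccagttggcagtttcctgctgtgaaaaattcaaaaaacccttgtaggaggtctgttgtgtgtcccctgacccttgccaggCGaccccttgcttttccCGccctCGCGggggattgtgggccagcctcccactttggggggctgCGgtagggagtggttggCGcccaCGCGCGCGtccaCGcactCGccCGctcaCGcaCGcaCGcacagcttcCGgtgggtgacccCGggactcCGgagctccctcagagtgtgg
Mcts2: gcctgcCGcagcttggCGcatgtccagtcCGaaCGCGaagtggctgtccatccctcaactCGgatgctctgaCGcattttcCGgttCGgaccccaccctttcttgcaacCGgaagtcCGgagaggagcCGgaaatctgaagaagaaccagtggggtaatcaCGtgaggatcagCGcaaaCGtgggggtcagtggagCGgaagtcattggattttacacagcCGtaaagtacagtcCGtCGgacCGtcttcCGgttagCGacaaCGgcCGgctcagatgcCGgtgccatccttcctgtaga
Peg12: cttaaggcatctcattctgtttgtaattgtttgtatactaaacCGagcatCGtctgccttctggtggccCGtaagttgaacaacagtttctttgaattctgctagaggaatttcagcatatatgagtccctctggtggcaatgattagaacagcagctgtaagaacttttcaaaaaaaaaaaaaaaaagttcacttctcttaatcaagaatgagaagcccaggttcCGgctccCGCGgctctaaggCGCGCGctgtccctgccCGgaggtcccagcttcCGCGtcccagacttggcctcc
Hes5: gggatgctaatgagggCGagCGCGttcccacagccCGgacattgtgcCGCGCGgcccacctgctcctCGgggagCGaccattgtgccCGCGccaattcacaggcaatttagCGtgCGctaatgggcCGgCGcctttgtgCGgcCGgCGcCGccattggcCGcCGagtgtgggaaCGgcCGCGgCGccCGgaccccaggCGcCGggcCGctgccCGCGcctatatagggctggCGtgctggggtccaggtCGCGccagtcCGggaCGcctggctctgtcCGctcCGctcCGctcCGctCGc
Gapdh: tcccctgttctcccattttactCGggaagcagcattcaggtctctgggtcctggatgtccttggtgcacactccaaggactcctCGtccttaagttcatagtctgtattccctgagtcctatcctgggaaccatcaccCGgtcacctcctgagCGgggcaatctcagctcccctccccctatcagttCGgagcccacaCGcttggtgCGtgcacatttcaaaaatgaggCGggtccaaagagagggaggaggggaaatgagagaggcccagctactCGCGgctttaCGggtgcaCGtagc

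Summits of both lists lay inside the windows of the first 5. Asz1, a piRNA pathway protein, has 17 CpGs there, and its summits scored 88.4 in the WT-named and 80.5 in the D1-named list, 55 and 36 bases before the start. Brdt, a testis bromodomain protein, has 23 CpGs and scored 90.2 and 70.1. Hormad1, a meiotic axis protein, has 24 CpGs and scored 86.6 and 74.7. Tex14, a protein of germ cell bridges, has 20 CpGs and scored 99.5 and 66.6, with H3K4me3 summits of both genotypes within 1 kb. Mcts2 has 25 CpGs and lower scores, 34.5 and 31.6. Its window too had H3K4me3 summits within 1 kb. Peg12 has 12 CpGs, with the nearest WT-named summit 694 bp and the nearest D1-named summit 11823 bp from the start. Hes5, with 41 CpGs, had its nearest summits 5649 and 5632 bp away, and Gapdh, with 12, had them 2681 and 2664 bp away. The dinucleotide CG, which is its own reverse complement, occurs in 94.8% of the 17492 promoter windows of protein-coding genes, with a median of 13, so its presence alone sets no window apart.

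The 23 germline genes examined, which are silent in somatic cells, all carried summits of both lists. All 23 had a summit of each list within 2 kb of a gene end, against 47.1% of all 21887 protein-coding genes in the WT-named and 41.8% in the D1-named list. Of the 21 with a known start, 20 had their best summit within 500 bp of it in both lists. In the WT-named list the scores at these 21 starts ran from 46.6 to 99.5 with a median of 85.9, and in the D1-named list from 40.4 to 89.8 with a median of 66.6. As a rank within its own list (the percentage of summits that score the same or less), the median of these 21 was 99.1 and 97.6. The other 2, whose start is not in the table, ranked lower: the X-linked Tex11 at 81.2 and 88.1 (scores of 43.4 and 45.3) and Piwil2 of the piRNA pathway at 88.4 and 70.8 (53.8 and 29.0). Examples are Sycp1 of the synaptonemal complex (93.2 and 89.8), the translational regulator Dazl (88.4 and 58.8), the RNA helicase Ddx4 (82.9 and 64.2) and Piwil1 of the piRNA pathway (86.6 and 71.3). The lowest were the X-linked Taf7l (46.6 and 40.4) and, among genes with an autosomal start, Sycp3 in the D1-named list (75.7 and 41.9). H3K4me3 lay within 1 kb of 1 of the 21 starts, that of Tex14, in either genotype. The ranks above set the best summit of each gene against all summits, and the best summits of all other promoters were not ranked. The germline list was chosen with earlier results of these data known, so its counts and ranks are descriptions only.

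Over all promoters, the share with a summit differed by CpG number, and at promoters with 5 or more CpGs also by H3K4me3, alike in both lists. A WT-named summit lay within 2 kb of the start at 15.2% (exact 95% binomial interval 14.3 to 16.3%) of windows with 0 to 4 CpGs, 36.2% (34.2 to 38.1%) with 5 to 9, 25.1% (23.7 to 26.6%) with 10 to 19 and 16.5% (15.6 to 17.5%) with 20 or more. The D1-named shares were 13.2, 30.7, 21.6 and 13.4%. The intervals cover counting error only and treat neighbouring summits as independent, which they are not. With no wild-type H3K4me3 summit within 1 kb, 133 of 687 windows with 10 to 19 CpGs (19.4%) held a WT-named summit inside the window and 129 (18.8%) a D1-named one. With H3K4me3, 4 and 2 of 3012 such windows did. Windows with 20 or more CpGs held one in 29 and 27 of 313 without H3K4me3, and in 9 and 7 of 5996 with it. At 0 to 4 CpGs, 16.75% of starts with H3K4me3 and 15.18% without it had a WT-named summit within 2 kb. The D1-named shares there were 14.72 and 13.16%, so this class showed little difference by H3K4me3. At 5 to 9 CpGs the WT-named shares were 17.17 and 44.59% and the D1-named ones 14.58 and 37.87%. A summit of both lists lay in 230 windows, of the WT-named list alone in 69 and of the D1-named list alone in 32. H3K4me3 of wild-type cells was near 3.91% of the 230 and near 57.8% of the 17161 windows with neither. Within 2 kb of the start, 3.65% of the 17492 promoters were marked in the WT-named list only and 0.446% in the D1-named list only.

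Along genes, summits were denser toward the end than at the start. In 11080 protein-coding genes of at least 10 kb with a known start, the first 10% of the gene's length held 54.9 WT-named and 44.8 D1-named summits per Mb and the last 10% held 143.6 and 122.4. In the last 10%, genes with 20 or more CpGs at the promoter held 171.0 and 146.4, and genes with 0 to 4 held 84.8 and 70.6. At starts with 20 or more CpGs there was a gap. WT-named summits numbered 19.8 per Mb in the last 500 bp before the start and 20.98 in the first 500 bp after it, against 102.9 at 4.5 to 5 kb inside. D1-named summits numbered 15.7, 17.8 and 82.7 per Mb in the same bins. Starts with 5 to 9 CpGs had a peak instead, with 200.8 and 173.2 per Mb in the first 500 bp, above the 84.0 and 70.9 just before the start. At the 3′ ends of all these genes, density was 224.7 and 190.1 per Mb at 500 to 1000 bp inside and 96.2 and 74.0 in the first 500 bp outside.

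**Figure D1:**
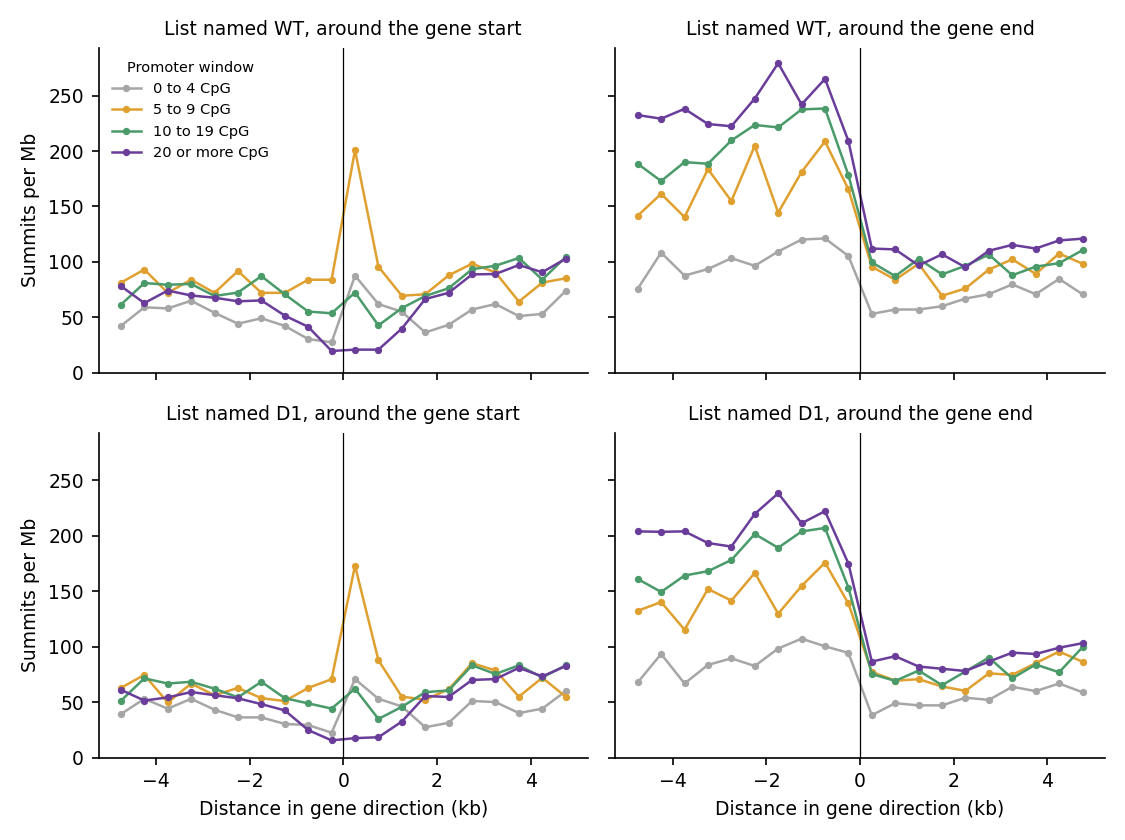
Summits per Mb in bins of 500 bp within 5 kb of the start (left) and the end (right) of 11080 protein-coding genes of at least 10 kb, for the WT-named (top) and D1-named (bottom) lists, with genes split by the number of CpGs in the promoter window (lines). Both lists show the gap at starts with 20 or more CpGs, the peak after starts with 5 to 9 CpGs and the drop at gene ends.

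Both lists were densest inside genes. Inside protein-coding genes lay 59.5% of WT-named (59.3 to 59.8%) and 60.6% of D1-named summits (60.3 to 60.9%), while these genes fill 38.2% of the span searched. Other annotated genes held a further 7.97 and 7.90%, and 32.5 and 31.5% were intergenic. Per Mb this came to 90.1 against 34.8 in coding genes and between genes in the WT-named list, and 74.3 against 27.4 in the D1-named list. The share inside coding genes was higher at higher scores, going from 50.8% in the lowest to 80.6% in the highest decile of the WT-named list and from 53.4 to 80.8% in the D1-named list. The share within 2 kb of a coding gene end, 9.59 and 9.83% of all, went from 8.14 to 15.1% and from 8.72 to 15.6%. The genes of at least 20 kb with the most summits for their length, both lists summed, were alike in the 2 lists. Ints1, a subunit of the Integrator complex, held 24 WT-named and 20 D1-named summits in 24.4 kb. Filamin C (Flnc) held 23 and 23, the Notch ligand Jag2 16 and 16, the pyrimidine synthesis enzyme Cad 16 and 18, the nuclease Dna2 18 and 20, the myosin Myh7b 17 and 18, and Gcn1, a translation regulator, 42 and 38. Tmem201 held 16 and 15, and the centrosomal protein Cep131 16 and 14. In absolute number the long gene Wwox led with 220 and 180. No summit of either list lay in 7023 protein-coding genes (32.1%).

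Both lists were spread over the chromosomes alike. Autosomes held between 46.1 (chromosome 14) and 81.9 (chromosome 19) WT-named summits per Mb, counted from the first to the last annotated gene, and between 36.9 and 66.7 D1-named ones, with the same chromosomes at both ends. Density followed gene content, with Spearman's rho of 0.67 in both lists against coding genes per Mb over the 19 autosomes, which share the same libraries. The ratio of WT-named to D1-named summits ran from 1.22 to 1.25 over the autosomes. The X chromosome differed in density and ratio. It held 14.7 and 11.1 summits per Mb, 23.5 and 21.7% of the autosomal density, and its ratio of 2515 to 1892 summits was 1.33 (1.25 to 1.41), against 1.23 (1.22 to 1.24) for the autosomes together. Male cells carry a single X and a single Y, and the part of copy number in these densities was not tested. The Y chromosome held 3.72 and 2.98 per Mb.

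**Figure D2:**
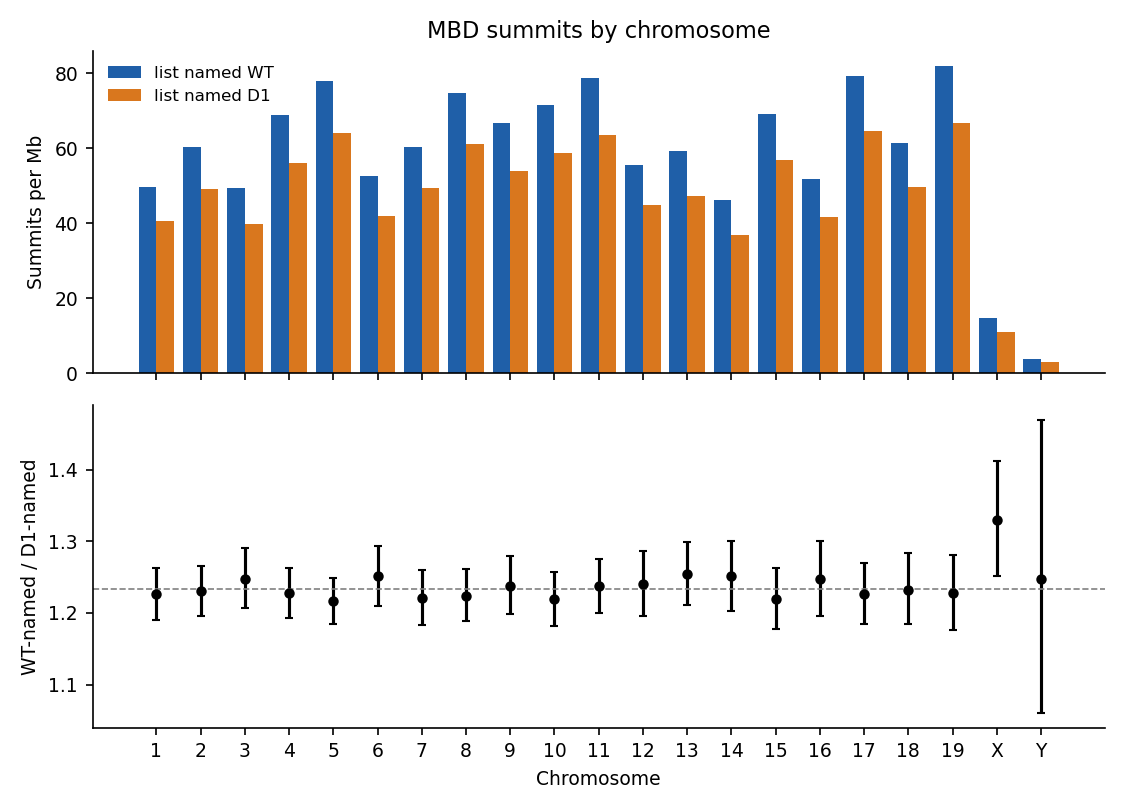
Summits per Mb for each chromosome in the WT-named (blue) and D1-named (orange) list (top), and the ratio of the 2 counts with its exact 95% interval (bottom), the dashed line being the ratio of all summits. Autosomal ratios lie between 1.22 and 1.25 and that of X at 1.33.

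X summits also ranked low. Their median score was 13.1 in the WT-named and 12.6 in the D1-named list, against 20.1 and 18.5 on autosomes, and 50.2% of WT-named X summits fell in the lowest 3 deciles of that list, against 29.6% of autosomal ones. The ratio on X depended on these low scores: X over autosomes was 1.08 with all summits, 1.02 with scores of 10 or more, and 0.813 when the 126631 highest-scoring summits of each list were compared. Of WT-named X summits, 75.8% (74.0 to 77.4%) had a D1-named summit within 1 kb, against 82.7% on autosomes. At the autosomal rates of the same score deciles X would have had 72.5%, which is below the measured share and its interval. Among 1823 matched X pairs, defined below, 59 (3.24%) ranked more than 25 percentile points higher in the D1-named list, against 2.95% of all pairs, and 7 (0.384%) ranked lower, against 3.57%. The median rank of X pairs in the WT-named list was 26.6, so many could not rank 25 points lower. Among the 8 genes of the X-inactivation centre was Xist, the RNA that coats the inactive X. Xist had end summits of both lists (scores 48.3 and 45.1), as did Jpx (31.0 and 29.9). The Xist antisense gene Tsix had its best end summits at opposite ends (32.8 and 40.4). Both lists also held a summit in the promoter window of Xist, within 2 kb of a Tsix end, so both marked that end. The ubiquitin ligase gene Rlim had a WT-named one only (8.41).

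Most WT-named and nearly all D1-named summits were shared. A counterpart within 1 kb was present for 82.5% of WT-named (82.3 to 82.7%) and 98.2% of D1-named summits (98.1 to 98.3%), which leaves 27281 WT-named and 2301 D1-named summits without one. Sharing followed score. In the lowest decile of the WT-named list 37.0% had a counterpart, in the second 50.5% and in the fifth 92.7%, and in the upper 4 deciles at least 99.7% did. In the D1-named list the lowest decile was at 90.5%. Of summits without a counterpart, 52.9% of the WT-named (52.3 to 53.5%) and 53.2% of the D1-named ones (51.1 to 55.2%) lay inside coding genes. These intervals do not reach the shares over all summits, and 38.6 and 36.9% were intergenic. Low-scoring summits as a whole had similar shares inside coding genes. The lowest 3 deciles stood at 50.8, 52.5 and 53.7% in the WT-named and 53.4, 51.9 and 56.1% in the D1-named list. Shares at matched scores were not compared. Equal numbers of the highest-scoring summits overlapped less at the top. Among the best 1000 of each list, 45.1% of the WT-named ones had a counterpart in the other best 1000, among 10000 it was 74.9%, among 50000 88.6% and among 126631 91.7%.

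**Figure D3:**
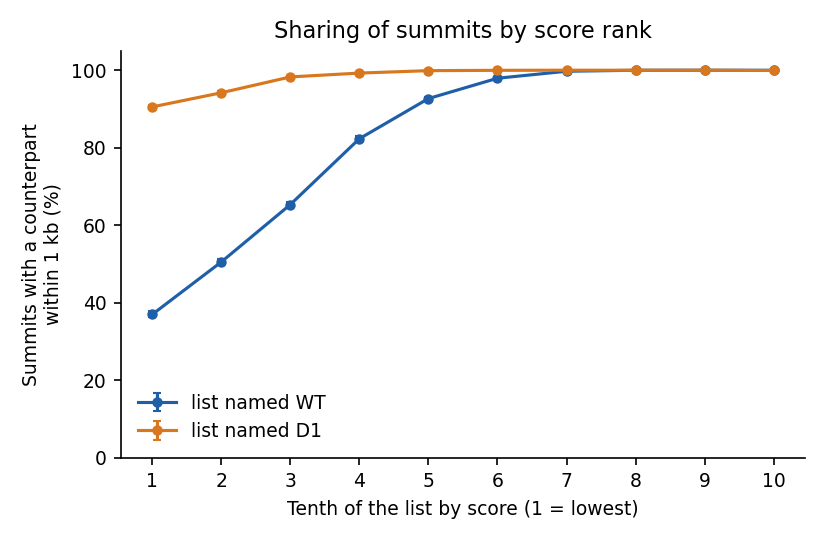
Percentage of summits with a summit of the other list within 1 kb (vertical axis) in each decile of the list by score (horizontal axis, lowest first), with exact 95% intervals that are mostly smaller than the points. The WT-named list (blue) runs from 37.0% to near 100%, the D1-named list (orange) from 90.5% to near 100%.

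The highest summits were looked up among those within 10 kb of a coding gene end, which leaves out some higher ones elsewhere. In the WT-named list they lay in or beside Prpf38b, a splicing factor gene (score 116.7), Gm32719 (114.6), the kinase Cdc42bpb (112.8), Gfod2 (109.0), the volume-regulated anion channel gene Lrrc8a (107.1), Aars2, a mitochondrial tRNA synthetase (106.1), the riboflavin transporter Slc52a2, Zfp12 and Ankrd11 (105.2 each), and Fibcd1 (104.2). All 10 had a D1-named summit within 1 kb. In the D1-named list Gm32719 was highest of all (108.6), followed among those named by Zfp513 (101.2), Ptbp1, a splicing repressor (93.6), Prpf38b and Chst12 (93.0 each), and Sh3bp4, Slc39a3, Tubb6, Fam222a and Csrnp1 (91.7 each), again all with a WT-named counterpart.

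Summits that were each other's nearest within 1 kb formed 122749 pairs, with a median distance of 10 bp. Their scores were ordered alike, with Spearman's rho of 0.90 across pairs, which are not independent. Each summit was given its percentile among the pairs, and the median difference without sign was 6.96 percentile points. A pair ranked more than 25 points lower in the D1-named list in 3.57% of cases (4383) and more than 25 points higher in 2.95% (3617). Matched summits at a gene were compared on these ranks, an analysis added after values were seen.

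The protocadherin alpha cluster (chr18:36910285-37208897 with 20 kb on each side, mm10) stood lower in the D1-named list. It encodes neuronal adhesion proteins from a row of alternative first exons, each with its own promoter, and all genes share their last exons, so a summit within 2 kb of an end belongs to 1 first exon while body counts overlap. Each of the genes Pcdha1 to Pcdha12 had a WT-named summit 1308 to 1969 bp inside its lower-coordinate end, with scores of 42.0 to 81.1 and ranks of 80.2 to 98.4 in the whole list. Of these, 11 had a D1-named summit there too, where the best scored 10.1 to 42.8, with ranks of 18.9 to 86.1. Pcdha8 went from 54.8 in the WT-named to 10.2 in the D1-named list, Pcdha2 from 68.6 to 13.9, Pcdha5 from 54.5 to 13.9, Pcdha9 from 72.2 to 20.4, Pcdha3 from 63.4 to 20.97, Pcdha10 from 53.2 to 17.8 and Pcdha11, at the matched position, from 42.0 to 8.96. These 7 differed most in rank. Pcdha7 (81.1 and 37.4), Pcdha12 (75.7 and 32.5), Pcdha6 (56.6 and 42.8) and Pcdha1 (44.7 and 38.0) kept more of it. Pcdha4 (51.6) had a WT-named summit only and led the WT-named summits that lie near coding genes (10 kb) with no D1-named one less than 5 kb away. Pcdhac1 had a WT-named summit only (15.0).

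Of 16 matched pairs in the cluster, 13 ranked lower in the D1-named list and 3 higher, with a median rank of 86.3 against 54.6 and a median difference of -18.9 points. Within 2 kb of gene ends, 7 of 11 pairs (63.6%) ranked more than 25 points lower, against 3.57% of all pairs, and the median difference was -36.9. The 4803 coding genes with 5 or more pairs had a median of their median differences of -0.38. Pcdha8 and Pcdha9, which share pairs, were the 2 below -25 (0.0416%), and Ptk2b, a tyrosine kinase (34.5), and Adgrf5, an adhesion receptor (25.6), were the 2 above 25 (0.0416%). The neighbouring clusters had medians nearer 0, though single genes there stood lower in the D1-named list too. The 28 pairs at protocadherin beta genes had a median difference of -0.24, with 3 (10.7%) more than 25 points lower and 1 (3.57%) higher. The lower ones were at Pcdhb11 (35.5 and 15.0), Pcdhb14 (37.1 and 16.2) and Pcdhb20 (49.99 and 19.6). The 29 at ends of protocadherin gamma genes had -2.60, with 1 (3.45%) lower and 3 (10.3%) higher. Over whole gamma genes, 39 pairs had -3.76, with 3 (7.69%) lower and 3 (7.69%) higher. Over all pairs these shares were 3.57% lower and 2.95% higher. Pcdhgb4 scored 77.5 and 21.6. With 1 list per genotype the spread between libraries behind these values is not known.

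**Figure D4:**
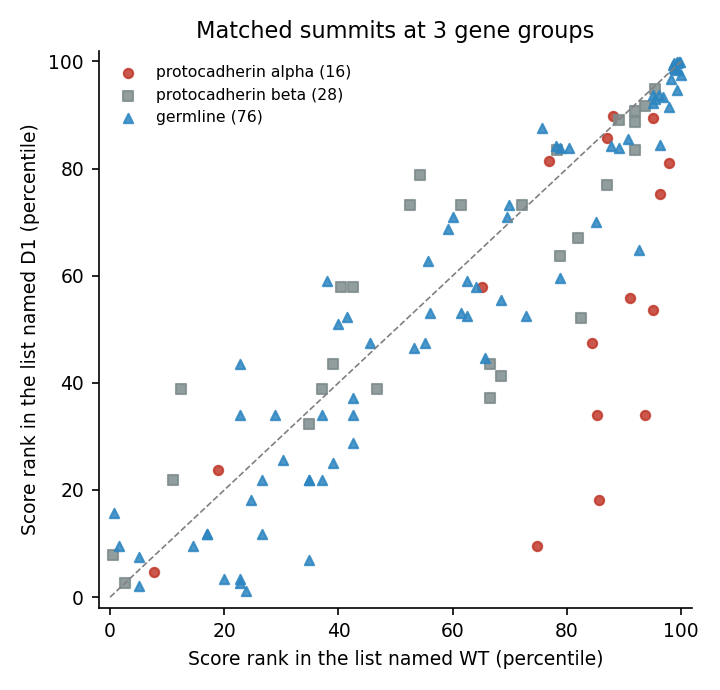
Rank of matched summits among all pairs in the WT-named (horizontal) and D1-named list (vertical), as percentiles, for the protocadherin alpha (red circles, 16), protocadherin beta (grey squares, 28) and germline genes (blue triangles, 76) and 2 kb around them; each point is a pair and the dashed line marks equal rank. Of the 16 protocadherin alpha pairs 13 lie under the line, and germline pairs gather near it.

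Single summits at imprinted regions differed in both directions. Among 20 genes with an allele-specific methylated control region, 19 had a WT-named and 18 a D1-named end summit. The scores were high at H19 (66.2 and 73.1), the non-coding RNA of the Igf2 locus, Gnas (61.7 and 53.2), Peg3 (46.1 and 39.6) and Peg10 (43.8 and 42.0). The Gnas values came from summits at different positions near its 3′ end. Within 2 kb of the listed Gnas start the best summits scored 29.0 in the WT-named and 43.7 in the D1-named list. Mest, a hydrolase gene, counted as WT-named only through a summit of 7.15 at its annotated end, and its highest summit, inside the gene, was in both lists (37.8 and 36.8). Of 35 pairs at these ends, 4 (11.4%) ranked more than 25 points higher in the D1-named list, against 2.95% of all pairs. Lower by more than 25 points was 1 (2.86%), which is below the 3.57% of all pairs. The non-coding RNA gene Airn silences Igf2r. Its summit just inside the start scored 27.6 in the WT-named and 49.9 in the D1-named list. The adaptor gene Grb10 had 13.5 and 26.4 at 6274 bp from an end but 32.5 and 8.41 within 2 kb of that end. At 2128 and 2020 bp inside a listed start of Grb10, summits scored 26.8 and 43.6 (ranks of 62.4 and 86.6 in the whole lists). Just before that start they scored 14.6 and 12.6. In Inpp5f the 5 pairs inside the gene all ranked higher in the D1-named list, by a median of 19.2 points, whereas a pair just past its end scored 57.1 in the WT-named and 43.7 in the D1-named list (ranks of 90.1 and 87.0 in the whole lists).

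The Snrpn cluster had the most uneven gene ends. Its imprinted, paternally expressed genes held WT-named summits without a D1-named one at Peg12 (40.2), at the ubiquitin ligase gene Mkrn3 (2 summits of 18.5) and at Ndn, a neuronal growth suppressor (2 of 9.11). From these summits the nearest D1-named one was at least 12517 bp away. H3K4me3 lay within 1 kb of the Peg12 start in the null but not in the wild-type list, and of the Magel2 start in the wild-type but not in the null list. Peg12 held the third highest WT-named summit without a counterpart within 5 kb, among those within 10 kb of a coding gene end. Magel2, between Ndn and Mkrn3, was marked in both lists. At its start side the scores were 31.0 and 21.8, and near its other end 24.2 and 43.7, which is a rank of 58.5 against 87.0 in the whole list. In all, 4 of 7 genes of the cluster had a WT-named and 1 a D1-named end summit, against 47.1 and 41.8% of all coding genes. Marked in the WT-named list only were 3 of the 7, against 5.86% of all coding genes. Over the region (chr7:58636142-62484510, 20 kb on each side included) the lists held 79 and 61 summits, with 15 and 1 without a counterpart. Over all assembled chromosomes, 27281 of 156188 WT-named and 2301 of 126631 D1-named summits had no counterpart. The ends of Ube3a, Atp10a and Snrpn had no summit. Inside the annotated genes, however, Snrpn held 10 WT-named and 7 D1-named summits, Atp10a 5 and 4, and Ube3a 0 and 0. At the Igf2r cluster all 7 genes were marked in both lists.

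HoxA was the only listed cluster whose gene ends were marked in the D1-named list alone, at 3 of its 11 genes, among them Hoxa9 with a score of 9.60. Hox genes, which set position along the body axis, had few summits: the ends of all HoxB, HoxC and HoxD genes had none in either list. With 20 kb on each side, the HoxA region held 1 WT-named and 2 D1-named summits, HoxB 2 and 3, HoxC 0 and 0 and HoxD 1 and 1. Over all coding genes, 41.2% were marked at an end in both lists, 5.86% in the WT-named list only and 0.617% in the D1-named list only, so the 3 of 11 HoxA genes, some of which share a summit, stand against a background of 0.617%. Between lists of equal number, the highest-scoring 126631 summits of each, 569 genes were marked in the WT-named list only and 481 in the D1-named list only.

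**Figure D5:**
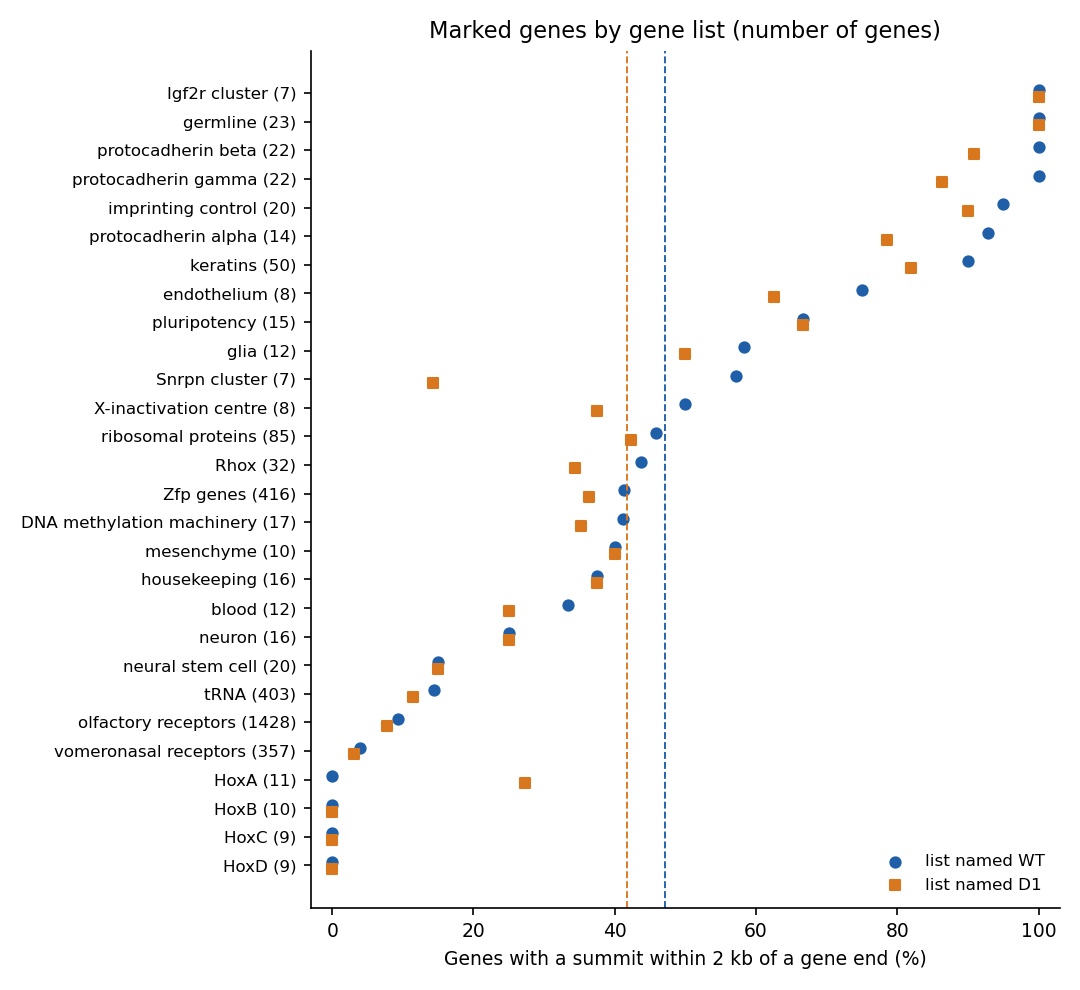
Percentage of genes with a summit within 2 kb of a gene end (horizontal axis) for each gene list (number of genes in brackets), in the WT-named (blue circles) and D1-named list (orange squares); dashed lines mark all protein-coding genes at 47.1 and 41.8%. The germline, Igf2r, protocadherin, imprinting and keratin lists lie highest, and Hox genes, vomeronasal and olfactory receptors lowest.

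Except for transfer RNA genes, the counts of marked genes in the remaining lists are to be set against 47.1 and 41.8% of all protein-coding genes. No list was tested against that share. Of 20 NSC genes 3 were marked at an end in both lists, among them Prom1 and Hes6, and 17 in neither, including Sox2, Nes, Vim, Olig2, Sox1 and Hes1. Of 16 housekeeping genes 6 were marked in both lists, all 12 with a known start having H3K4me3. Pluripotency genes were marked in 10 of 15, with the transcription factor Nanog at 45.8 and 30.9 and Zfp42 at 61.7 and 57.2, and with Pou5f1 in neither list. Glial genes were marked in 7 WT-named and 6 D1-named of 12. Gfap, the astrocyte filament gene, had summits of 78.0 and 76.5 at 175 and 146 bp from its start and no H3K4me3, whereas Aldh1l1 was WT-named only (9.42). Neuronal genes were marked in 4 and 4 of 16, endothelial genes in 6 and 5 of 8 with Tek WT-named only (11.3), blood genes in 4 and 3 of 12 with Cd3e WT-named only (8.41), and mesenchymal genes in 4 and 4 of 10. Keratins, structural genes of epithelia, were marked in 45 and 41 of 50, with Krt1, Krt9, Krt39 and Krt40 WT-named only. Receptors of smell were rarely marked, in 134 and 110 of 1428 olfactory and 14 and 11 of 357 vomeronasal genes. Near the share of all genes were the zinc finger genes of the Zfp group with 172 and 151 of 416 (41.4 and 36.3%) and ribosomal protein genes with 39 and 36 of 85 (45.9 and 42.4%). Marked were 58 and 46 of 403 transfer RNA genes, which are not protein-coding. At short genes the 2 kb zones around both ends overlap, so less sequence is searched. Among 32 X-linked Rhox homeobox genes 14 and 11 were marked, where Rhox7a (7.32) and Rhox2a and Rhox3a, which share a summit (13.1), were WT-named only. Of 17 genes of DNA methylation itself, 7 and 6 were marked at an end, with the maintenance enzyme Dnmt1 at 60.8 and 55.4, and Mbd1 WT-named only (20.9). In the protocadherin beta cluster 22 and 20 of 22 genes were marked, with Pcdhb21 (34.0) and Pcdhb1 (10.7) WT-named only, and in gamma 22 and 19 of 22, with Pcdhga1 (22.3) and the shared end summit of Pcdhgc3 and Pcdhgc4 (12.5) WT-named only.

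Smchd1 itself (chromosome 17, 71344489 to 71475366) held 9 summits of each list inside the gene. The highest scored 54.9 in the WT-named and 45.3 in the D1-named list, and the nearest to the start lay 10126 and 10032 bp inside it. Of the 9 D1-named ones 8 had a WT-named counterpart within 1 kb, and the ninth scored 12.5. The other WT-named summits with no D1-named one within 5 kb and a coding gene near were at Slc48a1 (45.0), N4bp3 (29.5), Gm46382 (28.0), Thbs2 (26.6), Zfp131 and Tipin (25.6 each), 4930447A16Rik (25.1), and Nfib as the lowest of these. In the D1-named list they included those at Gramd2 (16.5), Nup188 (16.3), Nr2e3 (15.8), Prkcb (14.3), Wdr64, Ndfip2 and Aqp1 (13.9 each), and Meox2 and Neb (13.7 each), these being below the median of that list.

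Whole gene bodies seldom departed from the genome-wide ratio. Of 5159 coding genes with at least 10 summits in both lists summed, 12 (0.233%) had a ratio 2-fold or more above it in favour of the WT-named list and 0 in favour of the D1-named list. Pax6, a transcription factor of neural progenitors, held 8 WT-named and 3 D1-named summits, and its 3 D1-named ones were each within 4 bp of a WT-named one, at scores of 16.2, 56.6 and 36.6 against 8.00, 38.9 and 29.4. The other 5 WT-named summits scored at most 17.5. Mctp2 and Dennd1a held 9 and 3 each, the ubiquitin ligase Itch, the phosphatases Ptprk and Dusp22 and the potassium channel Kcnb2 8 and 3 each, Msra and the cadherin Cdh12 13 and 5 each, and the DNA repair kinase Prkdc and the exchange factor Vav3 10 and 4 each. The exact 95% interval of the WT-named share, 39.0 to 94.0% at Pax6, included the genome-wide 55.2% in each of these 12 genes. At such low counts the interval is wide, so it cannot decide whether a gene departs from the genome-wide ratio. With equal numbers of highest-scoring summits, 3 genes passed in the one and 1 in the other direction.

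In windows of 1 Mb the same held. Of 2452 with at least 20 summits, 14 (0.571%) had a ratio 1.5-fold or more above the genome-wide one and 0 below it. They were 8 of 115 X windows (6.96%) and 6 of 2328 autosomal ones (0.258%), but X windows held a median of 28 summits of both lists against 88. The highest ratios were 14 to 6 summits on chromosome 15 at Cdh12, 16 to 7 on chromosome 3 at Cxxc4 and Tacr3, 15 to 7 on X at the GABA receptor genes Gabra3, Gabre and Gabrq, and 25 to 12 on X at 11000001 to 12000000. The interval of the WT-named share included 55.2% in each of the 14, but low counts make it wide here too, so it cannot decide whether a window departs. With equal numbers of highest-scoring summits 1 window was above and 22 were below, and in windows of 5 Mb none was above.

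Single pairs with large rank differences were found at other genes, chosen here after their values were seen from pairs whose summits lie within 50 bp. Larger differences stood at pairs further apart, as at Agap1 (10.1 and 74.97) and near Gins2 (11.9 and 58.9). Near Myc, the oncogene, a pair scored 17.8 in the WT-named and 43.9 in the D1-named list. Near Foxb2, a forkhead factor, it was 11.2 and 26.4, at Esr1, the oestrogen receptor, 17.4 and 35.6, and at the X-linked Gpr50 9.53 and 23.5. In the other direction were the phosphatase Ptprs (36.8 and 6.46), Plk5 (38.7 and 7.66) and Basp1 (37.1 and 7.99). These are single positions out of 122749.

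A part of the positions of other marks in the same cells lay near MBD summits. The share of random positions near them was not computed. The shares therefore do not say whether a mark lies nearer MBD summits than other positions do. Of 23449 wild-type H3K4me3 summits, 5.595% lay within 1 kb of a WT-named and 4.23% of a D1-named MBD summit, and of 24201 null ones 5.54 and 4.27%. H3K27me3, the Polycomb mark, was close to MBD summits in 11 and 5 of 732 wild-type summits and in 1 and 0 of 77 null ones. Ctcf, an insulator protein, was more often near: 16.7 and 14.1% of 8292 summits in untransduced wild-type cells and 17.6 and 14.6% of 11920 in null cells. With equal numbers of highest-scoring MBD summits, the wild-type H3K4me3 share near WT-named summits was 4.29%, against the 4.23% near D1-named ones.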

How the data were processed

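MBD-seq of 3 libraries per genotype was used as deposited: 2 lists of 1 bp summits, called by the authors on pooled libraries with that genotype's whole cell extract as control, per the labels. Per the submitters' processing notes, base calling used CASAVA 1.4, peaks MACS2 (version 2), on mm10. No source used here names the aligner. Scores are the authors' deposited −log10 significance (p-value or q-value, not stated), and the calling threshold in the list names is 5e-4 (0.0005). Replicate and depth values were not used here. Genes (49943, of which 21887 protein-coding) and promoter sequences came from RefSeq tables on GRCm38.p6. Of the protein-coding genes 17492 had a promoter, and none of chromosome 18 did. Summits count as shared within 1 kb and genes as marked within 2 kb of an annotated end.

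Distances, densities, shares with exact 95% Clopper-Pearson intervals and ranks were computed in Python 3.11.15 (numpy 2.4.6, pandas 2.3.3, scipy 1.17.1, matplotlib 3.10.9). No test across samples was possible with 1 list per genotype. Named genes were list members marked in 1 list only, the highest summits of each list with and without a counterpart, the densest genes, genes and 1 Mb windows past the ratio limits, and Smchd1; a part of them is given, and a few items are not reported here. The members and gene lists were chosen with earlier results of these data known. The counting scripts were tested on simulated data, which does not measure the power to find partial differences. Alternatives are in the closing section.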

Additional observations from a re-analysis of the deposited data

Results flagged for a closer look

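Summits on unplaced contigs lie outside the measurement on assembled chromosomes: the WT-named list held 206 and the D1-named list 181. They were in no comparison, since the gene table has no chromosome position for them. Other results could not be checked for samples that stand apart, because each genotype has 1 pooled list.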

How the results depend on the processing

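No paired analysis was possible because each genotype has 1 list called on its pooled libraries, whose columns carry no replicate number; leaving out a library was not possible for the same reason. Of the alternative values computed, 32 stayed within a set limit, 67 moved and 1 turned direction. The limit was the interval of a share or ratio and 1.5 times for a count. For the protocadherin alpha median it was 1 standard deviation of the 16 pair differences, so the -25.02 below counted as within it. With the 126631 highest-scoring summits of each list, the X ratio over the autosomal ratio turned from 1.08 to 0.813; WT-named and D1-named summits were shared at 91.7 and 92.3%, 569 and 481 genes were marked in a single list, 1 and 22 windows of 1 Mb and 3 and 1 gene bodies passed, the WT-named genic share was 61.3% and gene end share 9.88%, H3K4me3 near WT-named summits 4.29%, and promoters of 0 to 4, 5 to 9, 10 to 19 and 20 or more CpGs were marked at 12.7, 31.5, 21.4 and 13.8%. With scores of 10 or more, the length ratio was 1.22, the X ratio over autosomes 1.02, genic shares 61.1 and 61.9%, gene end shares 9.86 and 10.06%, D1-named sharing 97.8%, windows 7, H3K4me3 shares 4.54 and 3.43%, promoter shares 13.0, 32.5, 21.9 and 14.3% (WT-named) and 11.3, 27.1, 18.6 and 11.3% (D1-named), and pairs over 25 points apart 7.67% against 6.52%; the protocadherin alpha median shift was -25.02 (an alternative chosen after seeing the data) against -18.9. Merging summits within 500 bp gave genic shares of 59.2 and 60.3% and WT-named sharing of 82.0%. Counting all annotated genes gave genic shares of 67.5 and 68.5%. A distance of 250 bp gave sharing of 78.2 and 96.4%, H3K4me3 shares of 0.669 and 0.473%, and shares of wild-type Smchd1 binding summits near WT-named and D1-named summits of 2.95 and 2.21%, against 8.35 and 5.65% at 1 kb. A distance of 5 kb gave 90.7 and 99.1%, 46.6 and 40.6%, and 31.4 and 27.3%, with gene end shares of 20.6 and 21.2%, 13585 genes marked in both lists and 88 in the D1-named list only. A distance of 1 kb from gene ends gave gene end shares of 5.04 and 5.14%, 5610 genes in both lists, and promoter shares of 9.32, 25.8, 11.5 and 4.57% (WT-named) and 8.02, 21.4, 9.98 and 3.58% (D1-named). No window of 5 Mb passed (0). Without read depth, a summit missing from a list cannot be told from one below its threshold.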
